A study of Saccharomyces cerevisiae with 19 samples.

Results

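The mitochondrial ribosomal proteins were examined as a group of nuclear genes in wild-type budding yeast, Saccharomyces cerevisiae. Members were all nuclear genes whose standard name is MRPL, MRPS, MRP or RSM followed by a number, together with IMG1 and IMG2 and without MRP8. The rule found 68 genes among the 5758 genes with counts, 40 for proteins of the large subunit and 28 for proteins of the small subunit. The names were taken from the RefSeq annotation of the R64 assembly, on which all 68 are protein coding. By their family names, 42 have a counterpart in the bacterial ribosome (uL, bL, uS and bS names), 25 are specific to mitochondria (mL and mS names) and RSM22 has no family name in the annotation.

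Mitochondrial ribosomes, or mitoribosomes, make the few proteins encoded in mitochondrial DNA, which are mainly membrane subunits of the respiratory chain and the ATP synthase. Nearly all of their proteins are encoded in the nucleus, translated by cytosolic ribosomes and imported, so footprints on these mRNAs report on cytosolic translation of the parts of another ribosome. Most of the proteins are present once in their subunit, and yeast on glucose ferments while respiration is largely repressed.

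The series asks how far the oligonucleotides used to prepare a library bias it. The labels name a wild-type strain, BY4741, for every sample, grown in YPD to an OD600 of 0.4, given cycloheximide for 1 min, filtered and frozen. Lysis was also done with cycloheximide, at 100 µg per ml, for every sample. Ribosome-protected fragments of 28 to 32 nt from monosomes gave 13 libraries, which fell into DualLigation (n = 3), 4+3N low, 4+3N, 4N, Nonrandom low and Nonrandom (n = 2 each). For mRNA-seq there were 6 libraries, in pairs of 4+3N, 4N and Nonrandom. The series design names randomized and nonrandomized linkers and reverse transcription primers, but the labels do not say which oligonucleotides stand behind each group name or what low means. Whether replicates came from separate cultures is not in the labels, and the p-values therefore reflect the spread among these libraries alone, which may be technical. The 6 footprint libraries of 4+3N, 4N and Nonrandom are called the standard footprint libraries below.

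Counted reads ran from 6735945 to 13478946 in DualLigation and the standard footprint libraries, from 827353 to 2667016 in the low libraries and from 1838817 to 3497303 in mRNA-seq. In BY4741 LEU2, URA3 and MET17 are deleted, and the 19 libraries together held 1 read of LEU2 and none of URA3 or MET17. HIS3, which carries a partial deletion in this strain, had 58.3 to 123 CPM. STE2, the receptor that marks MATa cells such as BY4741, lay between 123 and 797 CPM, against 0 to 7.61 CPM for STE3, the receptor of the other mating type. The table of Nonrandom footprint replicate 1 listed 5559 genes a second time with another count, and the second list was used. In no gene was the first list above the second. Its counts were a median 83.6% of the second list's in genes of 100 to 1000 reads and 7.77% in genes of 20000 reads or more.

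The members took a small and steady share of the reads. In the standard footprint libraries they held 0.325% ± 0.00694 of all counted reads (SD, n = 6, from 0.315% to 0.333%), against 0.355% ± 0.00762 in mRNA-seq (SD, n = 6, from 0.346% to 0.367%). The large subunit took 0.182% of footprints and 0.186% of mRNA reads, and the small subunit took 0.143% of footprints and 0.168% of mRNA reads. Every one of the 68 genes had reads in every standard library, with at least 178 reads in each footprint library and at least 19 in each mRNA library. Since these are bulk cultures, fewer cells with an mRNA and less of it per cell cannot be told apart.

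Levels are given per gene length, as RPKM (reads per length of annotated gene and per size of the library), scaled by the TMM factors of all 19 libraries (normalised RPKM, computed here). On this scale the median member had 72.3 ± 1.10 in standard footprints and 51.4 ± 1.23 in mRNA (SD, n = 6 each), while the median of all genes was 29.4 in footprints and 32.0 in mRNA.

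MRPS12, the counterpart of the bacterial decoding-centre protein uS12, had the highest footprint level of the 68 (chromosome XIV from 694361 to 694822, 462 bases, sacCer3). Its lowest, median and highest normalised RPKM were 205, 227 and 244 in footprints, and 158, 173 and 188 in mRNA. It was also the member with the highest mRNA level.

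Next in footprint level came MRP2 (uS14), with 174, 202 and 216 normalised RPKM. MRPL39 (bL33), at 213 bases the shortest member, had 164, 184 and 205. MRP10 (mS37), a protein with the twin cysteine motif of intermembrane space proteins, had 138, 157 and 182. RSM19 (uS19) had 140, 152 and 180, and MRPL37 (mL54) had 140, 147 and 168. The ranges of MRP2 and MRPS12 overlapped, as did those of MRP2 and MRPL39 and those of MRP10, RSM19 and MRPL37, so the order among these neighbours lay within the spread of the libraries.

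RSM22, a methyltransferase-like protein of the small subunit and at 1887 bases the longest member, stood at the other end. It had 13.9, 15.4 and 16.8 normalised RPKM in footprints and 13.9, 16.0 and 18.6 in mRNA, below every library of every other member in both assays. The next lowest footprint levels were those of RSM28 (mS46), with 36.1, 38.2 and 40.3, RSM23 (mS29), with 36.0, 38.4 and 43.4, and MRPL17 (mL46), with 36.0, 41.4 and 44.7. MRPL4 (uL29), which lies at the exit of the peptide tunnel in bacteria, had 39.4, 42.1 and 49.5, and MRP20 (uL23), its neighbour there, had 40.3, 43.7 and 47.3. Apart from RSM28, whose highest library lay just below the lowest of MRP20, these ranges overlapped with each other, and none reached down to RSM22.

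**Figure D1:**
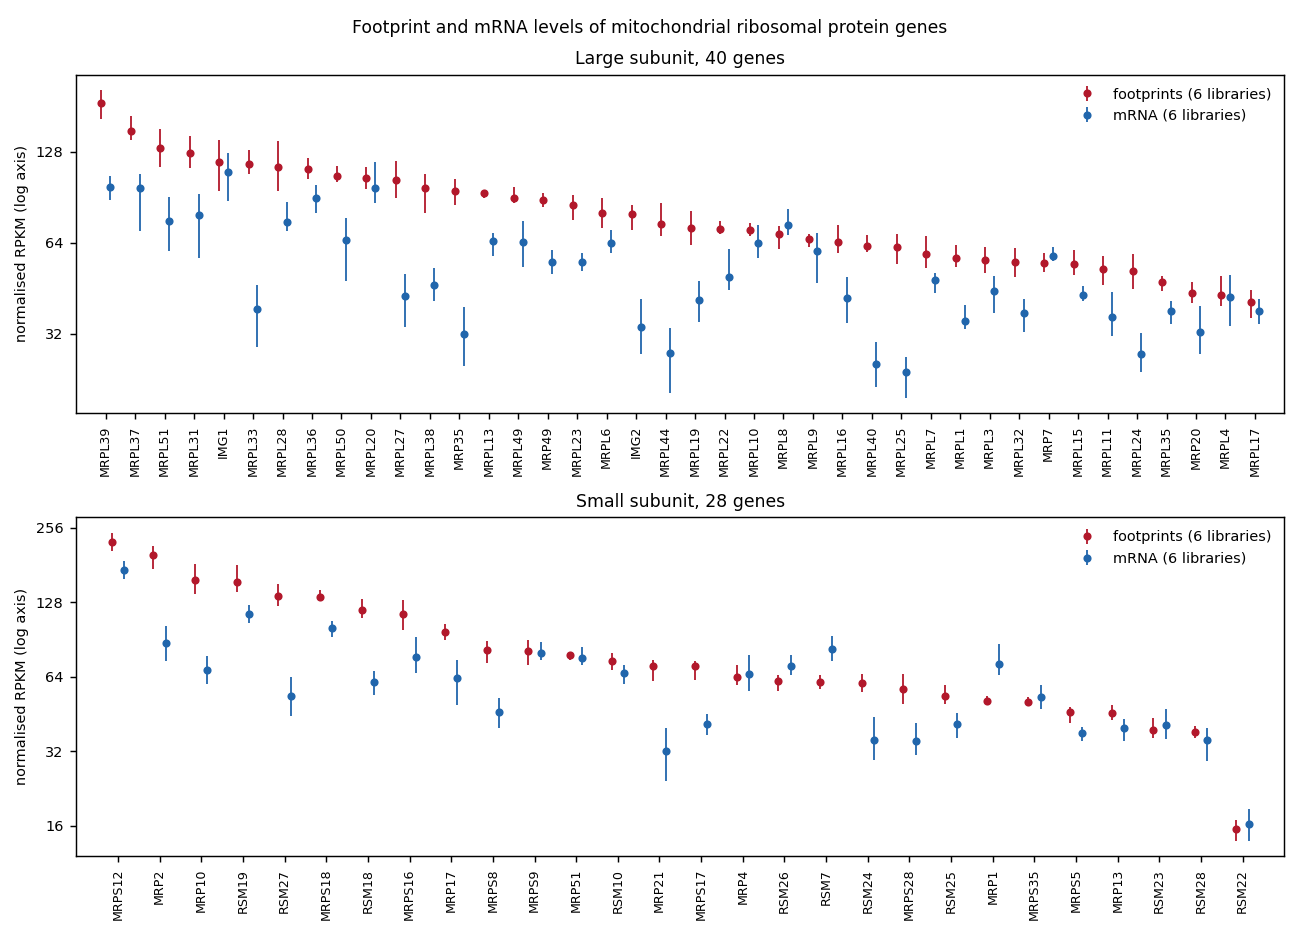
Normalised RPKM (log axis) of each gene in the 6 standard footprint libraries (red) and the 6 mRNA libraries (blue), with the large subunit above and the small subunit below. Points are means and bars run from the lowest to the highest library. Within the large subunit footprint means span from 185 in MRPL39 to 40.7 in MRPL17, and within the small subunit from 224 in MRPS12 to 15.5 in RSM22.

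Since most proteins occur once in a subunit, the evenness of the levels was measured as the SD over genes of the log2 normalised RPKM. For the large subunit it was 0.54 in standard footprints (0.51 to 0.57 over 6 libraries) and 0.60 in mRNA (0.58 to 0.62). For the small subunit it was 0.83 in footprints (0.80 to 0.86) and 0.70 in mRNA (0.68 to 0.75). By this SD the footprint libraries thus lay below the mRNA libraries in the large subunit and above them in the small subunit, with no overlap in either. The fold between the upper and lower quartile of genes did overlap. For the large subunit it was 1.7 to 1.93 in footprints and 1.73 to 1.89 in mRNA. For the small subunit it was 2 to 2.41 and 1.76 to 2.01.

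Counted per gene, with no division by length, the small subunit turned round: its SD was 0.41 to 0.43 in footprints and 0.64 to 0.71 in mRNA. The large subunit then had 0.36 to 0.39 in footprints and 0.67 to 0.79 in mRNA. By reads per gene, footprints were therefore the more even in both subunits, and the ranges did not overlap.

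From the highest to the lowest member the mean footprint level differed 4.56-fold in the large subunit and 14.5-fold in the small subunit, where RSM22 sets the lower end. The same span in mRNA was 4.59-fold and 10.7-fold. The per-length SD of cytosolic ribosomal proteins was 2.16 for the large and 1.51 for the small subunit in standard footprints, and 1.70 and 1.37 in mRNA. Many cytosolic ribosomal proteins come from pairs of near-identical genes, and how reads that align to both were counted is not given in the sources used here.

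The median large-subunit gene lay 0.06 above the median small-subunit gene in footprints on the log2 scale (-0.00 to 0.15 over 6 libraries). In mRNA it lay 0.33 below (-0.44 to -0.25). The subunits were thus about level in footprints and the small subunit was ahead in mRNA in each of the 6 libraries.

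**Figure D2:**
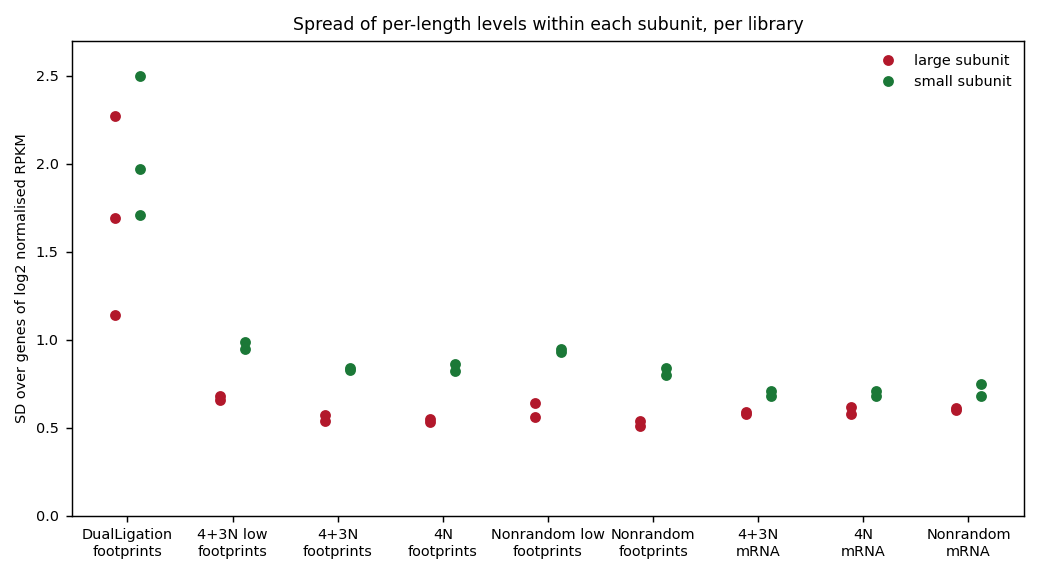
SD over genes of log2 normalised RPKM within the large (red, 40 genes) and small (green, 28 genes) subunit, 1 point per library. Standard footprints, low footprints and mRNA lie between 0.51 and 0.99, and the 3 DualLigation libraries lie between 1.14 and 2.50.

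The footprint to mRNA ratio, a measure of how densely an mRNA is occupied by ribosomes, was higher in most members than in the typical gene. In the fit over 6 footprint and 6 mRNA libraries (edgeR quasi-likelihood test, Benjamini-Hochberg adjustment over 5523 genes, threshold 0.05), all 68 members were tested. The ratio was above 0 on the log2 scale in 51 members, below it in 3, and 14 did not pass. Among all genes tested 40.2% were called higher and 44.5% lower. The median log2 ratio was 0.53 for the members, a 1.44-fold ratio, and -0.04 for all genes.

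These values are relative to the TMM scaling between the assays. Scaled by library totals alone, the median of all genes moved to -0.59 and that of the members to -0.02. Under that scaling 20 members were called higher and 29 lower, and the share of all genes called is not given here. The distance from the members' median to that of all genes was 0.57 under both scalings, and 59 of 68 members lay above the median of all genes under both. A change of scaling moves all genes by about the same amount, so these values could hardly differ. Directions of the ratio below hold under the TMM scaling.

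By subunit, 33 of 40 large-subunit genes rose and none fell, with a median of 0.58. With the replicate number as a block, MRPL8 (bL17) of the large subunit was called lower, at -0.18 (edgeR adjusted p = 0.0273). In the small subunit 18 of 28 rose and 3 fell, with a median of 0.38. Genes with bacterial counterparts and mitochondria-specific genes had nearly the same medians, 0.53 and 0.54, with 33 of 42 and 18 of 25 higher.

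MRPL33, the counterpart of uL30 (chromosome XIII from 841942 to 842202, 261 bases, sacCer3), had the highest ratio. Its lowest, median and highest normalised RPKM were 108, 116 and 130 in footprints, and 28.9, 40.6 and 46.5 in mRNA, so the assays did not overlap. The log2 ratio was 1.58 (SE 0.10, adjusted p = 2.38e-11, edgeR).

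MRP35, the counterpart of bL35 (chromosome XIV from 398023 to 398370, 348 bases), had 85.3, 96.4 and 104 in footprints and 24.9, 32.1 and 39.2 in mRNA, a log2 ratio of 1.57 (SE 0.10, edgeR adjusted p = 1.80e-11). MRPL44 (mL53), whose gene contains an intron that is part of the length used here, had 67.5, 73.2 and 86.4 in footprints and 20.4, 28.5 and 33.4 in mRNA. Its log2 ratio was 1.43. For both genes the lowest footprint library lay above the highest mRNA library.

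MRPL25 (mL59) followed at 1.39, RSM27 (mS33) at 1.34, MRPL40 (uL24, a tunnel-exit protein) at 1.31, MRPL27 (mL41) at 1.27, IMG2 (mL49) at 1.24, MRP10 at 1.23 and MRP2 at 1.21. MRPL40 reached this ratio with 894 bases, while MRPL33, MRP35, MRPL44, MRPL25, RSM27, MRPL27, IMG2, MRP10 and MRP2 have 261 to 474 bases.

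Highly expressed members did not all have a high ratio. The mRNA-rich MRPS12 rose by 0.39 (SE 0.05, edgeR adjusted p = 2.24e-06), and its footprint libraries all lay above its mRNA libraries. IMG1 (bL19), with the third highest mRNA level, had 94.7, 116 and 140 normalised RPKM in footprints and 87.6, 113 and 127 in mRNA. The ranges overlapped, and its log2 ratio of 0.12 (SE 0.10) did not pass.

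The 3 members that fell without the replicate block belong to the small subunit. MRP1 (mS43, chromosome IV from 1169178 to 1170143, sacCer3), a protein with the fold of superoxide dismutases, had 50.1, 50.6 and 53.3 in footprints and 65.1, 69.1 and 86.9 in mRNA. Each footprint library lay below each mRNA library, and the log2 ratio was -0.48 (SE 0.07, edgeR adjusted p = 2.13e-06). RSM7 (uS7, chromosome X from 638232 to 638975), a protein that organises the head of the small subunit in bacteria, had 56.9, 60.3 and 65.0 in footprints and 74.3, 80.7 and 93.5 in mRNA. Its log2 ratio was -0.44 (SE 0.06, edgeR adjusted p = 7.95e-07), again with no overlap.

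RSM26 (mS42), which shares the superoxide dismutase fold with MRP1, had 56.0, 61.9 and 65.0 in footprints and 65.0, 68.2 and 78.5 in mRNA. Its log2 ratio was -0.19 (SE 0.06, edgeR adjusted p = 0.00436). With the replicate number as a block it was -0.15 and no longer passed (edgeR adjusted p = 0.0601), and within preparations it was called in 4+3N (-0.43) and not in 4N (-0.07) or Nonrandom (-0.08).

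Of the other members that were followed by name, MRP7 (bL27), which reaches the peptidyl transferase centre in bacteria, had a log2 ratio of -0.07 (SE 0.06) and did not pass. RSM22 had -0.06 (SE 0.09) and did not pass. MRPL32 (bL32), whose precursor is cut by the m-AAA protease before it joins the ribosome, rose by 0.56, and the tunnel-exit protein MRP20 rose by 0.45.

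**Figure D3:**
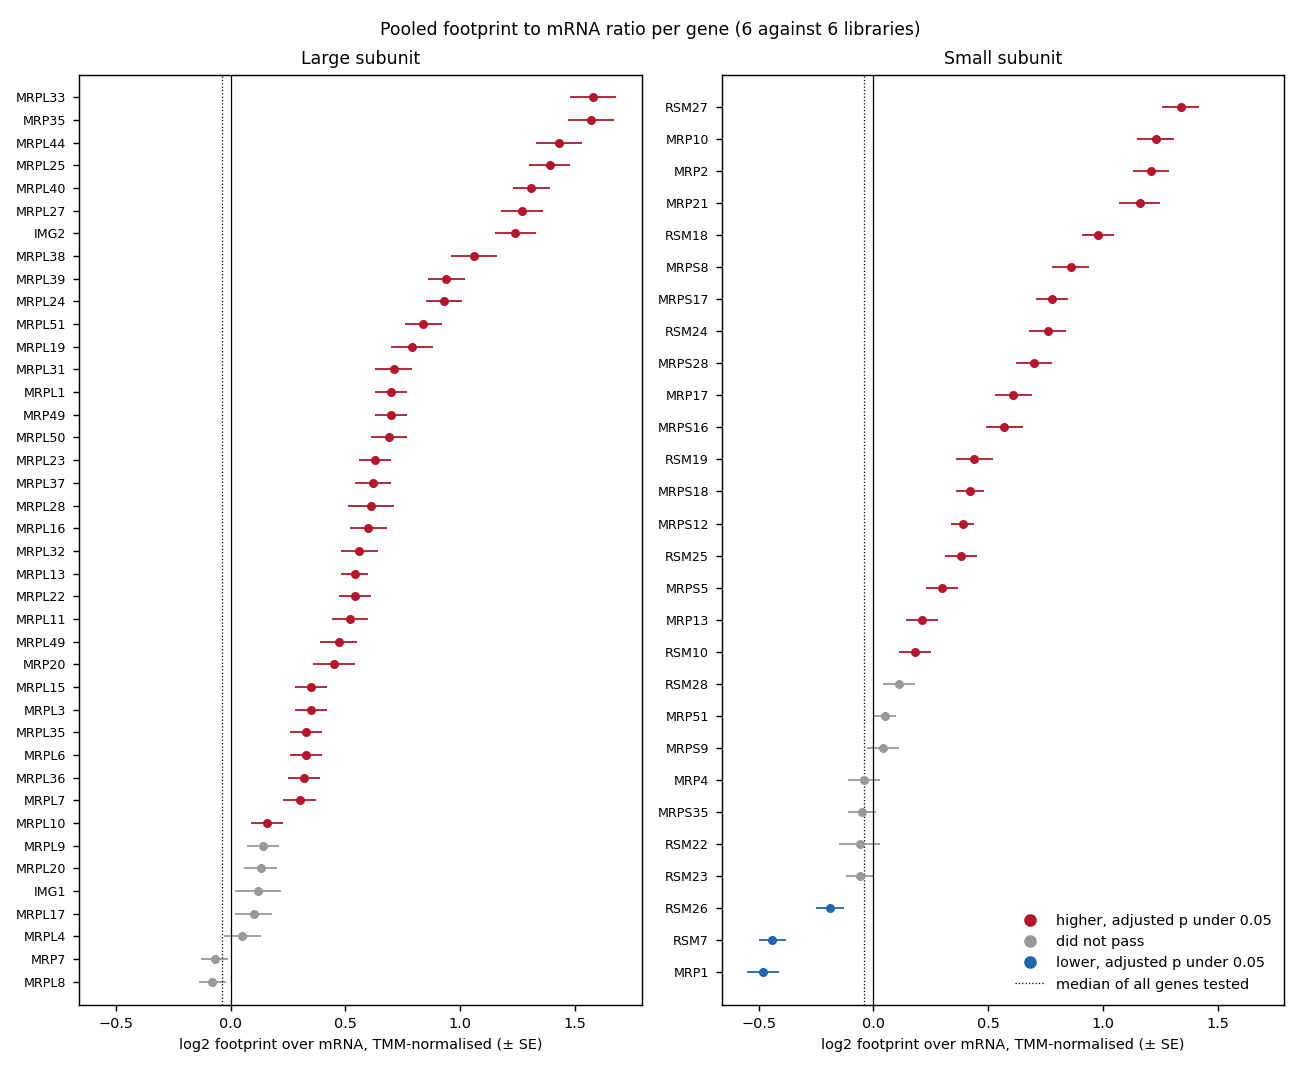
Log2 ratio of footprint to mRNA (± SE, edgeR fit over 6 footprint and 6 mRNA libraries) of each large-subunit (left) and small-subunit (right) gene, coloured by the test. The dotted line marks the median of all genes tested at -0.04, and under scaling by library totals alone that median moves to -0.59 and the members' median to -0.02. Under TMM without the replicate block 51 genes are higher and 3, all of the small subunit, are lower.

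Ratios tended to be higher in short genes. Over the 68 members the Pearson r between log2 gene length and the log2 ratio was -0.65 and the Spearman rho was -0.68, across genes that share the same 12 libraries and are not independent replicates. It was -0.60 within the large and -0.69 within the small subunit. Over 5521 genes with a length r was -0.11 and rho was -0.23.

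Below 450 bases all 20 members rose, with a median of 0.96, against 66.3% and a median of 0.62 among 457 other genes of that length. From 450 to 800 bases 20 of 24 members rose and the median was 0.46, against 54.8% and 0.28 among 924 other genes. At 800 bases or more 11 of 24 rose, 2 fell and the median was 0.12, against 33.4% and -0.20 among 4072 other genes. The members' median thus lay above that of other genes in each length class, and the part of length in the members' ratios was not tested further.

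**Figure D4:**
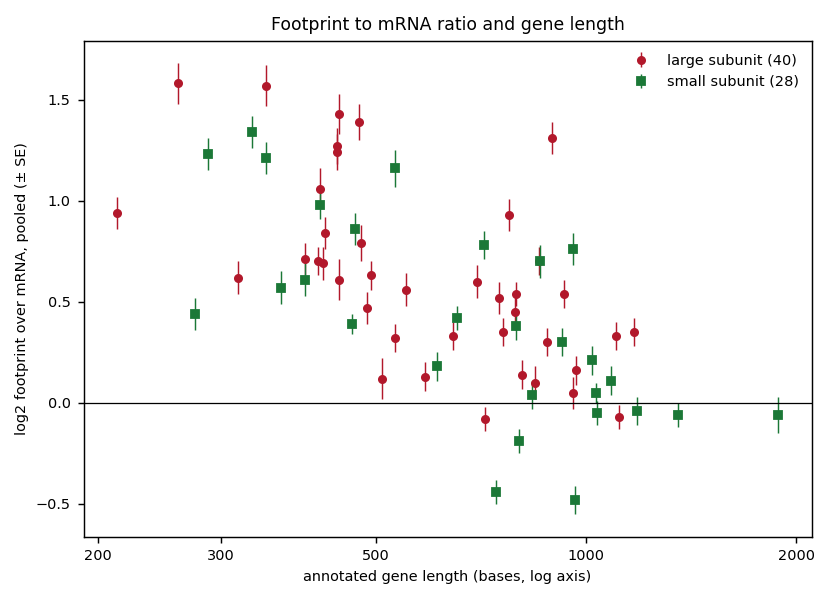
Log2 ratio of footprint to mRNA (± SE) against annotated gene length (bases, log axis) for the 40 large-subunit (red circles) and 28 small-subunit genes (green squares). Ratios tend to be lower in longer genes (Pearson r -0.65), with exceptions such as MRPL40 at 1.31 with 894 bases, and the longest gene, RSM22 with 1887 bases, lies at -0.06. Under scaling by library totals alone all points lie lower and the median member is at -0.02.

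Across the 68 members footprint and mRNA levels per length went together with a Pearson r of 0.72 (Spearman rho 0.65), as a description over genes whose 2 levels share the length.

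The ratios were also taken within each preparation. In 4+3N 46 members rose and 3 fell (all genes: 34.9% higher, 39% lower), in 4N 47 rose and 2 fell (35.3% higher, 39.1% lower), and in Nonrandom 47 rose and 2 fell (34.9% higher, 38.7% lower). In all 3 preparations 42 members rose and 2, MRP1 and RSM7, fell. The share of all genes called in all 3 was not computed. The call of RSM7 in 4+3N (-0.28, edgeR adjusted p = 0.0217) was lost with DESeq2 (-0.25, adjusted p = 0.108), with the other count list (-0.28), without 4+3N footprint replicate 1 (-0.25) and without 4+3N mRNA replicate 2 (-0.21). The medians over members were 0.53 in 4+3N, 0.48 in 4N and 0.49 in Nonrandom. MRPL33 had 1.37 in 4+3N, 1.64 in 4N and 1.74 in Nonrandom, and MRP35 had 1.44, 1.49 and 1.79 in the same order. RSM27 had 1.49, 1.13 and 1.38.

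When the difference of ratios was tested, 0 members passed in 4+3N minus Nonrandom (0.0543% of all genes did, edgeR) and 0 in 4N minus Nonrandom (0% of all genes). The fitted differences ran from -0.56 to 0.46 in 4+3N minus Nonrandom, with 95% intervals that reached from -1.05 to 0.89, and from -0.44 to 0.33 in 4N minus Nonrandom, with intervals from -0.98 to 0.72. Differences of that size are therefore not excluded for single genes.

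Other genes of mitochondrial translation were set beside the members, from lists of known components. Mitoribosomal proteins that carry other names went the same way: 9 of 11 rose, none fell and the median was 0.59. Among them RTC6 (bL36) rose by 1.20, SWS2 (uS13) by 1.24, MNP1 (bL12) by 0.68 and FYV4 by 1.23. RML2 (uL2), at -0.10, did not pass.

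Of 10 translation factors of mitochondria 3 rose and 5 fell. RRF1, the ribosome recycling factor, rose by 1.36, and TUF1, the elongation factor Tu of mitochondria, by 0.31. MEF2, an elongation factor of the G type, fell by 0.86 and MRF1, the peptide release factor, fell by 0.77.

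Of 15 translational activators, proteins that switch on the translation of single mitochondrial mRNAs, 12 fell and 2 rose, with a median of -1.14. ATP22 had 3.29 to 5.44 normalised RPKM in footprints and 19.9 to 22.6 in mRNA, and its ratio fell by 2.37. PET111, the activator for COX2, had 1.36 to 2.49 in footprints and 7.61 to 11.3 in mRNA, and fell by 2.19. CBP6, which binds the new cytochrome b chain together with CBP3, rose by 1.31.

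Of 11 genes for mitoribosome assembly and membrane anchoring, 9 fell, 1 rose and the median was -0.65. MRM2, an rRNA methyltransferase, fell by 2.46 and GEP3 fell by 1.98, while MDM38, a membrane protein that binds mitoribosomes, rose by 0.54. For comparison, 54 of 82 cytosolic large-subunit genes rose and 18 fell, with a median of 0.56, and 37 of 56 cytosolic small-subunit genes rose and 10 fell, with a median of 0.36. The differences between these lists were not tested.

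No member's footprints passed the test in 4+3N or 4N against Nonrandom, except with the replicate block given below. In 4+3N against Nonrandom 0 of 68 members passed (0.304% of all genes did, edgeR), and the log2 differences lay between -0.23 and 0.36. An unadjusted p under 0.05 was found in 7 of the 68 members and in 510 of 5261 genes. In 4N against Nonrandom 0 passed (0.133% of all genes), and the differences lay between -0.19 and 0.24. There 2 members and 152 of 5261 genes had an unadjusted p under 0.05. The 95% intervals reached from -0.48 to 0.56 in 4+3N and from -0.44 to 0.44 in 4N.

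The member with the smallest p in both was MRPS16 (bS16). It had 126 and 130 normalised RPKM in 4+3N, 112 and 123 in 4N, and 98.7 and 101 in Nonrandom, so that neither 4+3N nor 4N overlapped with Nonrandom. Of the 68 members 34 overlapped with Nonrandom in 4+3N and 44 in 4N, so the lack of overlap does not single out MRPS16. The difference of 4+3N from Nonrandom was 0.36 (SE 0.09, edgeR adjusted p = 0.278).

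Replicates with the same number deviated together within the footprint libraries, and with the replicate number as a block 3 members passed in 4+3N against Nonrandom, where 9.31% of all genes did. MRPS16 rose by 0.35 (edgeR adjusted p = 0.00631), MRPL51 (mL43), which overlaps another annotated gene over 323 bases, by 0.26 (adjusted p = 0.0269) and MRPS12 by 0.20 (adjusted p = 0.0304). MRPL51 had 136 and 152 normalised RPKM in 4+3N, against 114 and 125 in Nonrandom. MRPS12 had 230 and 244 in 4+3N, against 205 and 209 in Nonrandom.

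In mRNA-seq 0 members passed in 4+3N against Nonrandom (0.222% of all genes, edgeR) and 0 in 4N against Nonrandom (0.185% of all genes). An unadjusted p under 0.05 was found in 2 members and 197 of 5415 genes in 4+3N. In 4N it was found in 1 member and 201 of 5415 genes. The widest 95% intervals reached from -0.60 to 0.87. Replicates lay close in these groups: the median over members of the SD of log2 levels was 0.08 in 4+3N, 0.07 in 4N and 0.07 in Nonrandom footprints, and 0.12, 0.10 and 0.12 in mRNA.

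Few members differed between low and standard footprint libraries. In Nonrandom low against Nonrandom 1 member rose and none fell (all genes: 1.01% higher, 0.445% lower). This was MRPL39, with 325 and 268 normalised RPKM in Nonrandom low, against 178 and 164 in Nonrandom. The difference was 0.77 (SE 0.15, edgeR adjusted p = 0.00738). Without Nonrandom low replicate 1 it was 0.64 and without Nonrandom replicate 2 it was 0.71, and in both cases it no longer passed.

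In 4+3N low against 4+3N 0 members passed (0.734% of all genes, edgeR), with differences from -0.48 to 0.60. An unadjusted p under 0.05 was found in 10 of the 68 members and in 551 of 5174 genes. MRPL39 was again the member with the smallest p, with 240 and 313 normalised RPKM in 4+3N low, against 205 and 171 in 4+3N. The groups did not overlap, but only 30 of the 68 members had overlapping groups here, so that does not single out MRPL39. The difference was 0.60 (SE 0.19, edgeR adjusted p = 0.199). With the replicate block it was 0.62 and passed (edgeR adjusted p = 0.047), as did 2.61% of all genes. The correlation of deviations between same-numbered replicates of these groups (r = 0.095) lay just below the limit of 0.1 used here. That does not settle whether they pair.

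The difference between the 2 low effects passed for 0 members (0.232% of all genes, edgeR). Its unadjusted p was under 0.05 in 3 members and in 261 of 5174 genes. The members held 0.306% and 0.327% of reads in 4+3N low and 0.322% and 0.337% in Nonrandom low. Evenness was 0.67 in 4+3N low and 0.60 in Nonrandom low for the large subunit, and 0.97 and 0.94 for the small subunit, above the standard footprint libraries in all but 1 large-subunit value. These libraries had 15 to 67 reads in the member with fewest, against 178 to 295 in the standard footprint libraries.

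DualLigation was the comparison of footprint libraries with the most members called. Against the mean of 4+3N, 4N and Nonrandom, 13 members rose and 46 fell, while among all genes 33.1% rose and 32.6% fell (edgeR, 5300 genes tested). Called in either direction were 86.8% of members and 65.7% of all genes. The median log2 difference was -0.73 for members and -0.05 for all genes. Scaled by library totals alone 7 members rose and 52 fell, the median of all genes moved to -0.71 and that of the members to -1.42. The share of all genes called under that scaling is not given here. The values below use TMM. The fit takes the same spread per gene for all groups, although DualLigation replicates varied more. Their median SD over members was 0.44, against 0.07 to 0.08 in the standard footprint groups. The SEs, p-values and calls of this comparison may therefore understate the spread of DualLigation.

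MRPS8, the counterpart of uS8 (chromosome XIII from 572248 to 572715, sacCer3), had 1139, 1799 and 2651 normalised RPKM in DualLigation, against 72.4, 83.9 and 88.8 as the lowest, median and highest standard library. It rose by 4.50 (SE 0.23, edgeR adjusted p = 3.52e-06), or 22.7-fold. MRPL20 (mL58, chromosome XI from 599094 to 599681) had 445, 1949 and 2941 in DualLigation, against 96.4, 106 and 114, a rise of 4.08 (SE 0.45, edgeR adjusted p = 0.000101). MRPS16 (chromosome XVI from 528985 to 529350) had 808, 1731 and 2427 in DualLigation, against 98.7, 118 and 130, a rise of 3.85 (SE 0.28, edgeR adjusted p = 1.29e-05).

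In all 3 genes each DualLigation library lay far above each standard library, and replicate 1 was the lowest. Together MRPS8, MRPS16 and MRPL20 held 28.7%, 50.3% and 61.2% of all members' reads in DualLigation replicates 1, 2 and 3, against 4.10% to 4.30% in the standard footprint libraries.

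Smaller rises were seen in MRPL4 (1.92), RSM18 (1.85), MRPL25 (1.65), MRPS18 (1.15) and MRPL40 (1.11). RSM18 (bS18) was the steadiest of these, with 463, 407 and 415 normalised RPKM in DualLigation, against 110, 118 and 132 as lowest, median and highest standard library. MRPL4, among the lowest members in the standard libraries, had 102, 210 and 177, against 39.4, 42.1 and 49.5. MRPS18 (uS11) had 381, 249 and 263, against 129, 132 and 143, and scaled by library totals alone its difference of 0.52 did not pass.

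The largest fall was that of MRPL31 (mL60, chromosome XI from 185286 to 185681, sacCer3). It had 18.7, 9.28 and 4.38 normalised RPKM in DualLigation, against 113, 123 and 144, a fall of 3.61 (SE 0.37, edgeR adjusted p = 6.44e-05). MRP35 had 14.2, 3.77 and 9.98, against 85.3, 96.4 and 104, and fell by 3.41. Both genes had every DualLigation library well below every standard library.

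MRPL33 had 21.3 and 15.1 in DualLigation replicates 1 and 2, against 108, 116 and 130 in the standard libraries, and fell by 3.31 (SE 0.62, edgeR adjusted p = 0.00182). MRP10 had 26.5 and 27.8, against 138, 157 and 182, and fell by 3.12 (SE 0.66). Both genes had 0 reads in DualLigation replicate 3, which allows up to 1.81 normalised RPKM for MRPL33 and 1.64 for MRP10 (3 reads, counting error only). Every member had reads in each of the other 18 libraries.

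MRPL1 (uL1, of the stalk beside the exit site) fell by 2.48, MRPL9 (uL3) by 2.38, and MRPL27 and MRP2 by 2.13 each. Within DualLigation these falls were uneven: MRPL1 had 15.1, 14.4 and 1.29 normalised RPKM and MRPL27 had 35.5, 30.9 and 4.65. MRPS12, the top member in the standard footprint libraries, had 161, 91.5 and 59.4, against 205, 227 and 244, and fell by 1.11.

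Of the remaining members followed by name, RSM22 had 10.6, 11.3 and 15.7, against 13.9, 15.4 and 16.8 (difference -0.30, not passed), and IMG1 had 114, 69.0 and 43.6, against 94.7, 116 and 140 (difference -0.64, not passed). IMG2 had 109, 61.9 and 74.8, against 70.4, 82.6 and 85.0, and a difference of 0.04 (95% interval -0.36 to 0.44). In each of the 3 the groups overlapped.

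**Figure D5:**
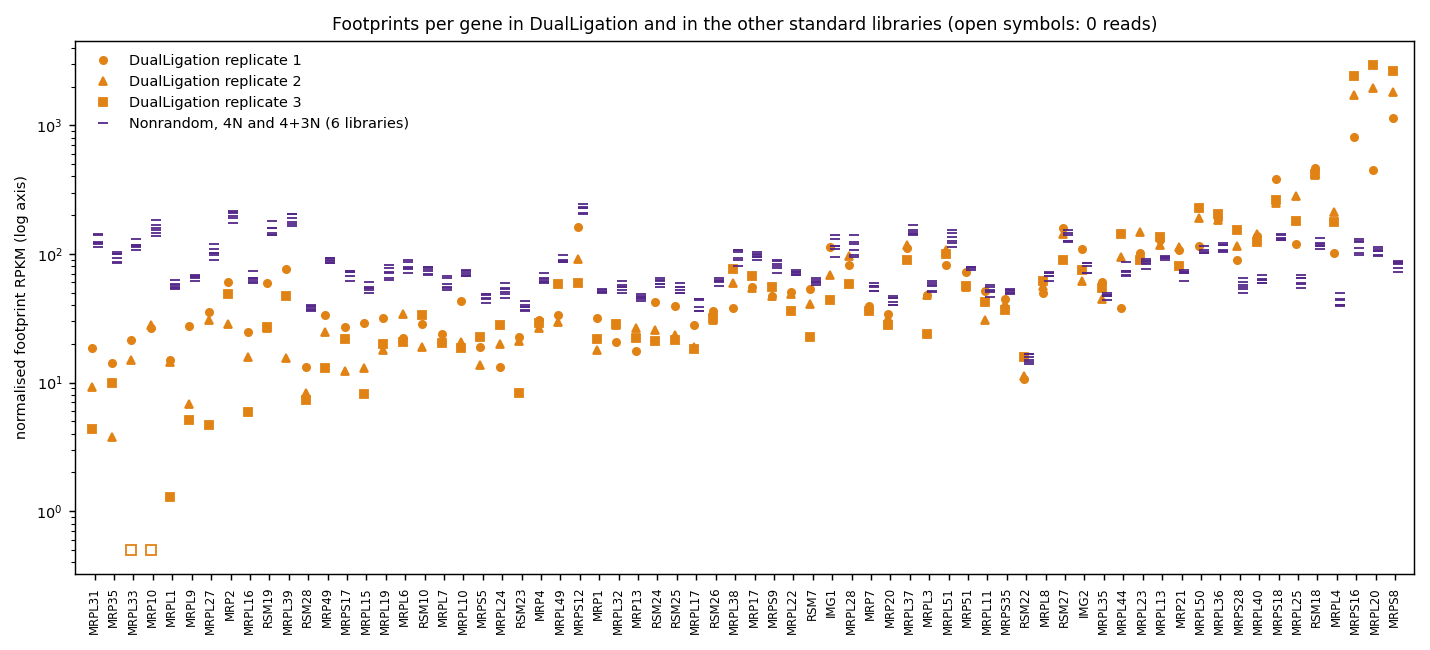
Normalised footprint RPKM (log axis) of each member in the 3 DualLigation libraries (orange, open squares at the lower edge for 0 reads) and the 6 standard libraries (purple dashes), ordered by the fitted difference. MRPS8, MRPL20 and MRPS16 at the right reach 2427 to 2941 in DualLigation replicate 3, while the standard libraries of each gene lie close together.

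The members' share of reads did not show these shifts. It was 0.274%, 0.294% and 0.345% in DualLigation replicates 1, 2 and 3, near the 0.315% to 0.333% of the standard libraries. This total includes MRPS8, MRPS16 and MRPL20, which held 28.7%, 50.3% and 61.2% of members' reads in these replicates. In the standard footprint libraries they held 4.10% to 4.30%, so the share of the other members was lower in DualLigation. The SD of log2 levels was 1.14, 1.69 and 2.27 for the large and 1.71, 1.97 and 2.50 for the small subunit, each above every standard library. Without MRPS8, MRPS16 and MRPL20, chosen after their values were seen, it was still 1.03 to 2.05 for the large and 1.34 to 1.94 for the small subunit.

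The per-length SD of cytosolic ribosomal proteins was 2.21 for the large subunit in DualLigation, against 2.16 in the standard libraries, and 2.07 for the small subunit, against 1.51. The median over members of the SD between replicates was 0.44 on the log2 scale in DualLigation, against 0.07 to 0.08 in the standard footprint groups, and 13 members differed over 3-fold between the lowest and highest DualLigation library. Gene length went with the ratio but hardly with the DualLigation difference, with a Pearson r of 0.07 over the 68 members.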

How the data were processed

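For each of 19 libraries the authors deposited a table of raw read counts by gene. CASAVA 1.8, Bowtie 1.0.0 and sacCer3 are named by the submitters' processing notes. The rule that assigned reads to genes, its strand and its treatment of multiply aligned reads are not given in the sources used here. MRPL19 overlaps YNL184C over 113 bases, so their reads may be shared. Groups and replicate numbers follow the sample titles. They conflict with other labels: the deposited tables' names give 3N for titles with 4N and 4N for titles with 4+3N, and the characteristics of 4+3N footprint replicate 2 give replicate 1, which bears on the replicate block. Genes not listed in a library were set to 0. The second of the repeated count lists was used, because its Pearson r with replicate 2 was 0.996 across genes (0.957 for the first). Names and gene lengths came from RefSeq R64, where 5754 of 5758 identifiers matched. Lengths are annotated spans, and all 68 members' spans are multiples of 3.

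Counts were filtered with filterByExpr, scaled by TMM and tested with glmQLFit and glmQLFTest in edgeR 4.0.16 under R 4.3.3. Tests were two-sided, adjusted by Benjamini-Hochberg over all genes tested, with a threshold of 0.05, and were run separately for the 3 standard footprint groups, these with DualLigation, Nonrandom and 4+3N with their low libraries, mRNA, and both assays together. SE is the absolute log2 difference over the square root of F. The pooled ratio is the mean of the ratios of the 3 preparations. Alternatives were RLE size factors, library totals alone, DESeq2 1.42.0, no filter, the replicate block, the other count list and leaving out each replicate. Evenness used a pseudocount of 0.5 reads. Precision is limited by depth, and floors cover counting error only. The procedure was tested on simulated data in which all groups of a fit had the same spread and few genes changed. That test does not cover the wider spread of DualLigation or comparisons in which most genes are called.

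Equal replicate numbers were checked by the correlation of deviations from group means over genes. It was 0.32 to 0.516 in the 3 pairs of standard footprint groups and 0.128 to 0.313 in the 3 of mRNA, so in these sets the numbers were taken to pair the samples. The main fits carry no block, which was an alternative. The correlation exceeded 0.1 in 5 of 9 pairs between footprint and mRNA groups and in 0 of 3 with DualLigation. Among Nonrandom, 4+3N and their low groups it exceeded 0.1 in 3 of 6 pairs, including Nonrandom with 4+3N (0.32). Nonrandom low had 0.165 with Nonrandom and 0.166 with 4+3N.

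Named were those past the threshold with the 8 largest rises and 8 largest falls in a comparison, the 6 highest and 6 lowest by footprint level, mRNA level and ratio, and IMG1, IMG2, MRP7, MRP20, MRPL32, MRPS12, RSM22 and MRP10. Up to 4 genes per other list had the smallest p, and RML2, TUF1, CBP6 and MDM38 were chosen after their values were seen. MRPS16, MRPL51, MRPL39 and MRPL8 were also described where they did not pass in the main test. The members and lists were chosen with earlier results of these data known.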

Additional observations from a re-analysis of the deposited data

Results flagged for a closer look

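In groups of 6 libraries, 3 of 86 sets of values held a library far from the others by Dixon's criterion for 6 values, from the gap to the nearest library over the whole range. Chance gives about 1 in 20 such sets. MRP21 had 61.6 normalised RPKM in Nonrandom footprint replicate 2, below the other 5 standard footprint libraries. MRPL44 had 86.4 in the same library, above the other 5. MRPL37 had 69.9 in 4+3N mRNA replicate 1, below the other 5 mRNA libraries.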

How the results depend on the processing

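Counts of members called moved beyond 1.5 times in few cases. Library totals alone turned the pooled ratio of 8 named members: MRPS12 -0.16, RSM19 -0.11, RSM28 -0.44, MRPL17 -0.45, MRPL4 -0.51, MRP20 -0.11, IMG1 -0.43 and MRPS18 -0.13. The replicate block gave 3 members in 4+3N against Nonrandom and 1 in 4+3N low against 4+3N, in place of 0, where 9.31% and 2.61% of all genes were called. It also ended the call of RSM26 in the pooled ratio (-0.15) and called MRPL8 (-0.18). Between 4+3N low and 4+3N the correlation check gave r = 0.095, just below the limit, which does not settle whether the replicate numbers pair the samples. Between Nonrandom low and Nonrandom r was 0.165, above the limit of 0.1. Leaving out 1 library at a time, the count of members called was 52 to 55 for the pooled ratio, 43 to 50 in 4+3N, 37 to 48 in 4N, 41 to 49 in Nonrandom, 54 to 62 in DualLigation and 0 to 1 in Nonrandom low. The other count list gave members' shares of standard footprints of 0.390% in all, 0.218% for the large and 0.171% for the small subunit, and evenness of 0.52 and 0.80; in that list the members held 0.712% of reads, against 0.323% in the one used. With no division by length evenness was, for the large subunit, 0.37 in standard footprints, 0.72 in mRNA, 0.37 in Nonrandom low and 0.44 in 4+3N low, and for the small subunit 0.42 in standard footprints, 0.48 in Nonrandom low and 0.50 in 4+3N low. With means over members in place of medians, the large subunit lay above the small by -0.28 in DualLigation, 0.11 in 4+3N low, 0.09 in Nonrandom low and -0.18 in mRNA. RSM7 in 4+3N no longer passed in 4 alternatives, among them DESeq2 (-0.25). The other 358 alternative values for whole lists lay within 1.5 times the main count of members called or within the spread of the libraries. These counts join rises and falls, so a change of direction does not show in them. Under library totals alone the pooled ratio had 20 rises and 29 falls, in place of 51 and 3. There the members' median was -0.02 and that of all genes -0.59. Within preparations rises and falls were then 15 and 21 in 4+3N, 17 and 23 in 4N, and 17 and 21 in Nonrandom. Causes were not tested. The lowest member count was 15 to 67 reads in the low and 19 to 54 in the mRNA libraries, which limits small differences there.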
